A study of Arabidopsis thaliana with 4 samples.

Results

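The AINTEGUMENTA and PLETHORA genes were represented here by 6 members of the AP2 family of Arabidopsis thaliana, AINTEGUMENTA (ANT, AT4G37750), AINTEGUMENTA-LIKE 5, 6 and 7 (AIL5, AT5G57390, AIL6, AT5G10510, and AIL7, AT5G65510), PLETHORA 1 (PLT1, AT3G20840) and PLETHORA 2 (PLT2, AT1G51190). All regions called in a chromatin immunoprecipitation and sequencing (ChIP-seq) experiment on KANADI1 (KAN1) were searched for these genes, and a region was taken when the deposited table named one of them as the gene at its centre or as the closest gene to its left or right. This gave 21 of the 22103 regions on the 5 chromosomes, of which ANT had 9, PLT1 6, AIL5 and AIL7 2 each, and AIL6 and PLT2 1 each. The paper reports fewer enriched peaks than the deposited table holds, and which of the regions these are was not determined here. KAN1-FLAG ChIP was made in 2 libraries from plants carrying 35S:FLAG-GR-KAN1, in which the constitutive 35S promoter drives KAN1 fused to a FLAG tag and to the steroid-binding part of the glucocorticoid receptor, so that the protein enters the nucleus after dexamethasone is given. By the labels, for all 4 libraries, liquid cultures were 10 days old and dexamethasone was present for 45 minutes. The labels list 2 control libraries, which they describe as input, whereas the methods describe 1 control library from wild-type Columbia (Col-0) plants, so the nature of the second control is not settled. KAN1 was made throughout the plant in this line and chromatin came from whole plants, so the data hold no information on cell types. The labels do not say whether libraries of a group came from separate plants. The paper calls the 2 ChIP-seq experiments independent without stating this, and the spread between libraries of a group may be technical.

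ANT and PLT proteins are transcription factors that carry a double AP2 DNA-binding domain. ANT promotes cell proliferation and the growth of leaves and floral organs, PLT1 and PLT2 are master regulators of the root stem cell niche and act in a dose-dependent way, and AIL5, AIL6 and AIL7, which are also called PLT5, PLT3 and PLT7, act in organ positioning at the shoot tip, in lateral root outgrowth and in flower development. KAN1 is a GARP-family transcription factor that specifies the abaxial (lower) side of leaves, mostly by repression. A motif reported for KAN1, VGAATAW, is the word GAATA with any base but T before it and with A or T after it, and it was searched on both strands.

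Sequences of the binding regions that the results turn on are shown first, from the RefSeq TAIR10.1 reference, with the sites of this motif in capitals. Sites in the regions with a ratio of 3 or more are given as 30 bases read 5′ to 3′ on the strand that carries the site, 1 of them for the region 4962 bp upstream of ANT, which had the highest ratio. They lay in intergenic sequence for ANT and PLT1 and in an intron for AIL7.
ANT 4962 bp upstream, site 3 (chr4:17734718-17734747, - strand): caaaattttggGGAATAAaagtttgtaaaa
ANT 417 bp downstream (chr4:17742920-17742949, - strand): tgatggaggagGGAATATtttaaaattttg
AIL7 intron, site 1 (chr5:26187872-26187901, - strand): ataacagcattGGAATAAagggtcaaaagt
AIL7 intron, site 2 (chr5:26187956-26187985, - strand): aagctagcaaaAGAATATatgcatagtgtt
PLT1 9795 bp upstream, site 1 (chr3:7290645-7290674, + strand): taacccaaaaacAGAATATacgtaccaatc
PLT1 9795 bp upstream, site 2 (chr3:7290688-7290717, + strand): tcctcttgtctaCGAATAActactacaaac
PLT1 9795 bp upstream, site 3 (chr3:7291080-7291109, - strand): aagagaatccaCGAATAAtaaaattttatg

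The central 120 bp of another enriched region of ANT, which held no site, are given for contrast. They are intergenic.
ANT 4153 bp upstream, centre (chr4:17735301-17735420, + strand): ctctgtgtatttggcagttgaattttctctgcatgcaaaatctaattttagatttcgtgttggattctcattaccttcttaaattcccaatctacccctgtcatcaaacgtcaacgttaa

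Enrichment was measured as the reads of a ChIP library in a region divided by the summed reads of both controls in it. Control 2 was nearly empty, with 13441 reads over all regions, against 661648 in control 1, and it had no read in 15 of the 21 regions. ChIP replicate 1 had 2082943 reads over all regions and replicate 2 had 1036664. The ratio is not corrected for depth, and over all regions together it was 3.09 in replicate 1 and 1.54 in replicate 2. The ratio was higher in replicate 1 in 20 of the 21 regions and equal in 1, so the standard deviation (SD, n = 2) below contains the difference in depth. Intervals are exact 95% binomial (Clopper-Pearson) intervals of the ratio, which cover counting error only. A region was called enriched here at a mean ratio of 3 or more.

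ANT, AIL7 and PLT1 had an enriched region, and AIL5, AIL6 and PLT2 had none. Of the 21 regions, 6 were enriched (28.6%), against 18.8% of all regions, and 4 of the 6 belonged to ANT. At a threshold of 2 in place of 3 the shares were 38.1% and 38.0%, and at 4 they were 4.76% and 9.90%. A ratio of 3 or more in both replicates was found in 3 of the 21 regions, all of ANT, against 7.37% of all regions. The deposited false discovery rate, given per replicate, was at most 0.05 in both replicates in 4 of the 21, against 5.93% of all regions. These 4 were the ANT regions 4962 bp upstream and 417 bp downstream, the AIL7 intron region and the PLT1 region 9795 bp upstream. Replicate 1 passed that rate in 17 of the 21 regions (81.0%), against 75.9% of all regions, and replicate 2 in 4, against 5.93%. The replicate 2 rate does not follow the ratio used here. In the ANT region 6130 bp upstream it was 0.457, at a replicate 2 ratio of 3.0 (1.81 to 5.18). In the PLT1 region 9795 bp upstream it was 0.041, at a lower replicate 2 ratio of 2.16 (1.53 to 3.07). The 4 regions that passed had 110 to 186 reads in ChIP replicate 2 and 0 in control 2. How the nearly empty control 2 entered this rate was not tested. A high rate in replicate 2 is therefore not read as absence of enrichment, nor a low one as a ratio of 3 in that replicate. The median ratio of the 21 regions was 1.84, against 1.62 over all regions. With ChIP replicate 1 alone, 8 of the 21 regions reached a ratio of 3, against 31.8% of all regions, and with replicate 2 alone 3 did, against 7.37%.

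**Figure D1:**
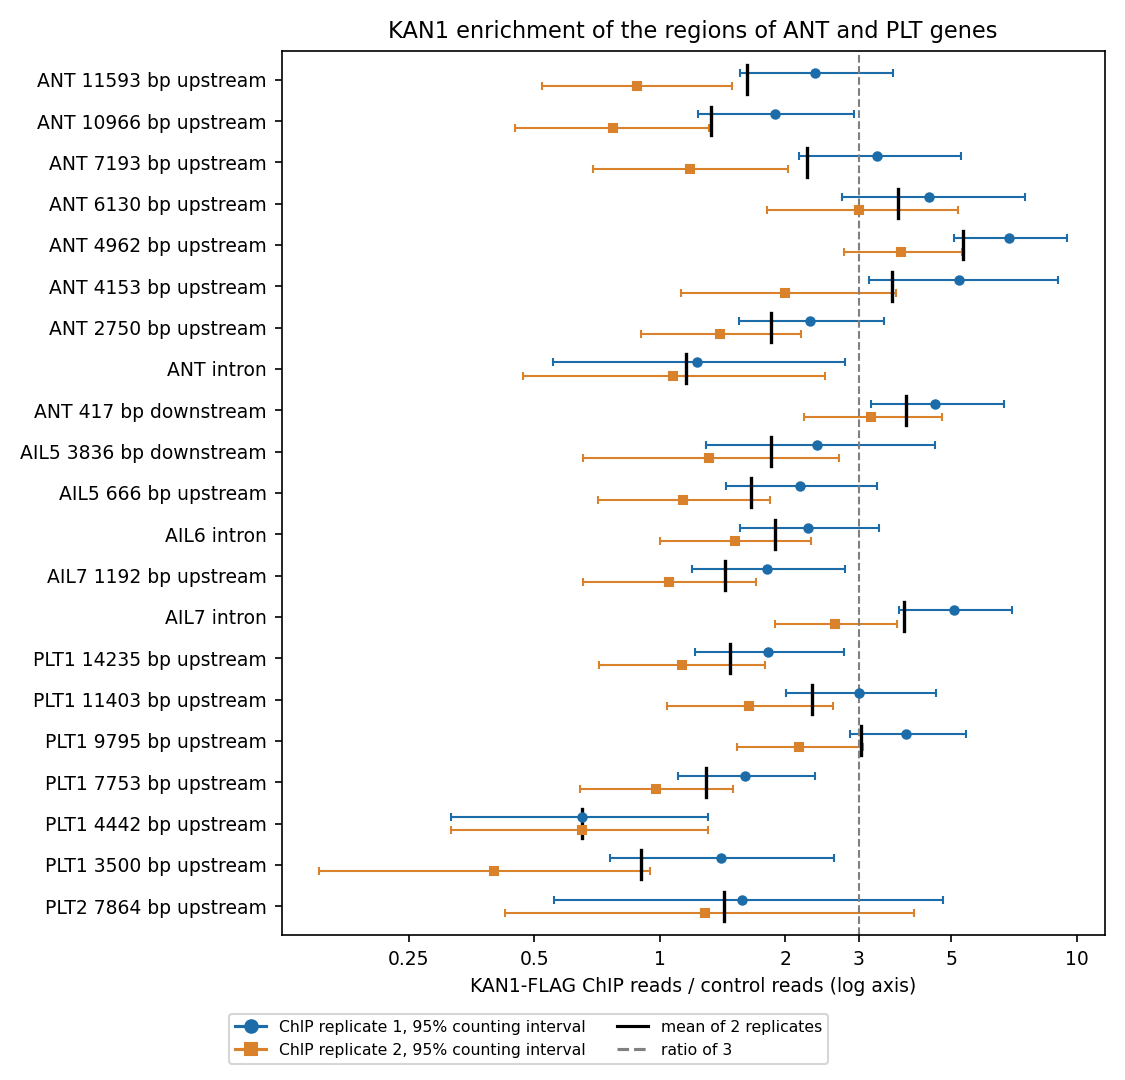
KAN1-FLAG ChIP reads divided by control reads (log axis) in each of the 21 regions, for ChIP replicate 1 (circles) and replicate 2 (squares) with 95% counting intervals, the mean (black bar) and a ratio of 3 (dashed line). The mean reaches 3 in 4 regions of ANT, 1 of AIL7 and 1 of PLT1, and replicate 1 lies above replicate 2 in 20 regions.

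**Figure D2:**
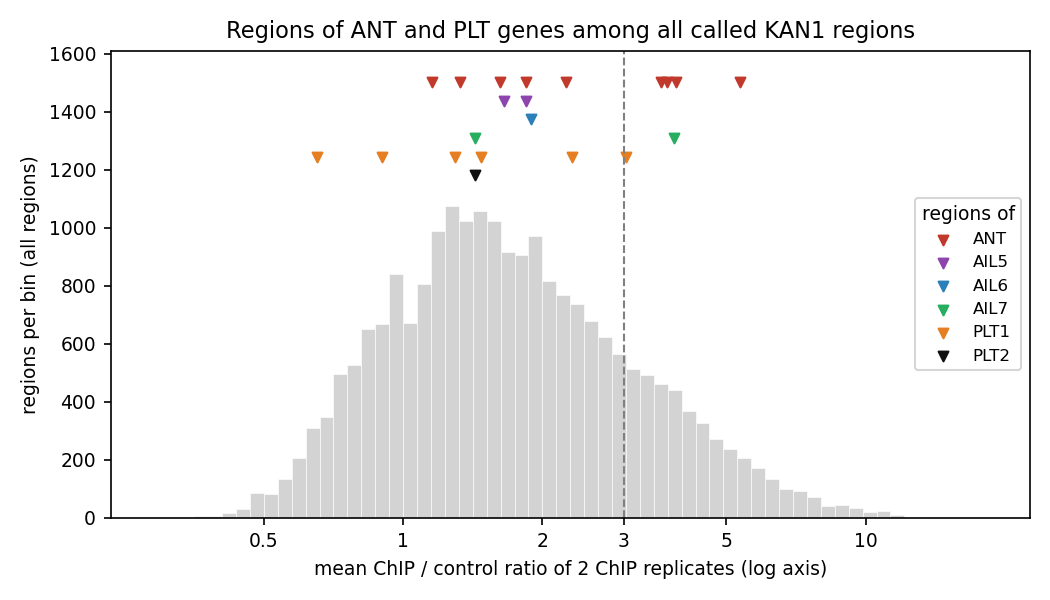
Number of all 22103 called regions per bin of mean ratio (grey, log axis), with the regions of each ANT or PLT gene as triangles above it and a ratio of 3 as a dashed line. The 21 regions spread over the body of the distribution, between 0.652 and 5.34, and 6 lie at 3 or more.

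ANT lies on chromosome 4 at 17739514-17742407 on the plus strand, and its 9 regions spanned both flanks and the gene. The gene on its left, GRF2 (AT4G37740), encodes a growth-regulating factor that promotes leaf cell expansion and proliferation and is transcribed in the opposite direction. The regions between the 2 genes are therefore upstream of both. Distances are those deposited, from the centre of a region to the nearest end of the gene, and differ somewhat from those in the newer gene models of the reference.

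The strongest of all 21 regions (17734335-17734769, 435 bp) had its centre 4962 bp upstream of ANT and 6821 bp from GRF2. It held 337 and 186 reads in the ChIP libraries, against 49 and 0 in the controls. The ratio was 6.88 (5.09 to 9.48) in replicate 1 and 3.80 (2.76 to 5.31) in replicate 2, with a mean of 5.34 ± 2.18 (SD, n = 2). This mean had a percentile of 95.9 among all regions. The region held 3 sites, at 11, 80 and 181 bp from its centre, of which the last is the one shown above, and 3 or more sites were found in 5.01% of all regions and in 12.6% of enriched ones.

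Enriched regions flanked it on both sides. The region 6130 bp upstream of ANT (17733249-17733518) had 93 and 63 ChIP reads, against 20 and 1 control reads, and ratios of 4.43 and 3.0 (3.71 ± 1.01, SD, n = 2). The region 4153 bp upstream (17735264-17735458) had 99 and 38 ChIP reads, against 19 and 0 control reads, and ratios of 5.21 and 2.00 (3.61 ± 2.27). Neither held a site of the motif. The first of them overlaps AT4G09655 (17733390-17733672, minus strand), a long non-coding RNA gene of the reference that the deposited table does not name.

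The fourth enriched region of ANT lay on the other side of the gene, 417 bp past its 3′ end (17742643-17742995) and 1068 bp before SQE3 (AT4G37760), which encodes a squalene epoxidase of sterol synthesis. It had 174 and 122 ChIP reads, against 38 and 0 control reads. The ratios of 4.58 and 3.21 (3.89 ± 0.97, SD, n = 2) were the closest to each other among the 6 enriched regions, and both were above 3. It held 1 site, GGAATAT, 116 bp from the centre. In all 4 ANT regions both ChIP libraries had more reads than either control.

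The other 5 regions of ANT had mean ratios between 1.15 and 2.25. The highest of these, 7193 bp upstream (17732179-17732463), had 93 and 33 ChIP reads, against 28 and 0 control reads, with ratios of 3.32 and 1.18 that lie on either side of the threshold. It held 2 sites, AGAATAT and CGAATAA, at 8 and 44 bp from the centre. The region closest to the start of ANT on its upstream side, at 2750 bp (17736617-17736910), had 87 and 53 ChIP reads, against 37 and 1 control reads, and a mean ratio of 1.84 ± 0.63 (SD, n = 2), and a CGAATAT site lay 1 bp from its centre. The 2 regions next to GRF2, 190 and 817 bp from it and 11593 and 10966 bp from ANT, had mean ratios of 1.62 and 1.33. A region of 132 bp in an intron of ANT had 16 and 14 ChIP reads, against 13 and 0 control reads, and with counts this low its intervals reached from 0.555 to 2.78 and from 0.470 to 2.49.

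**Figure D3:**
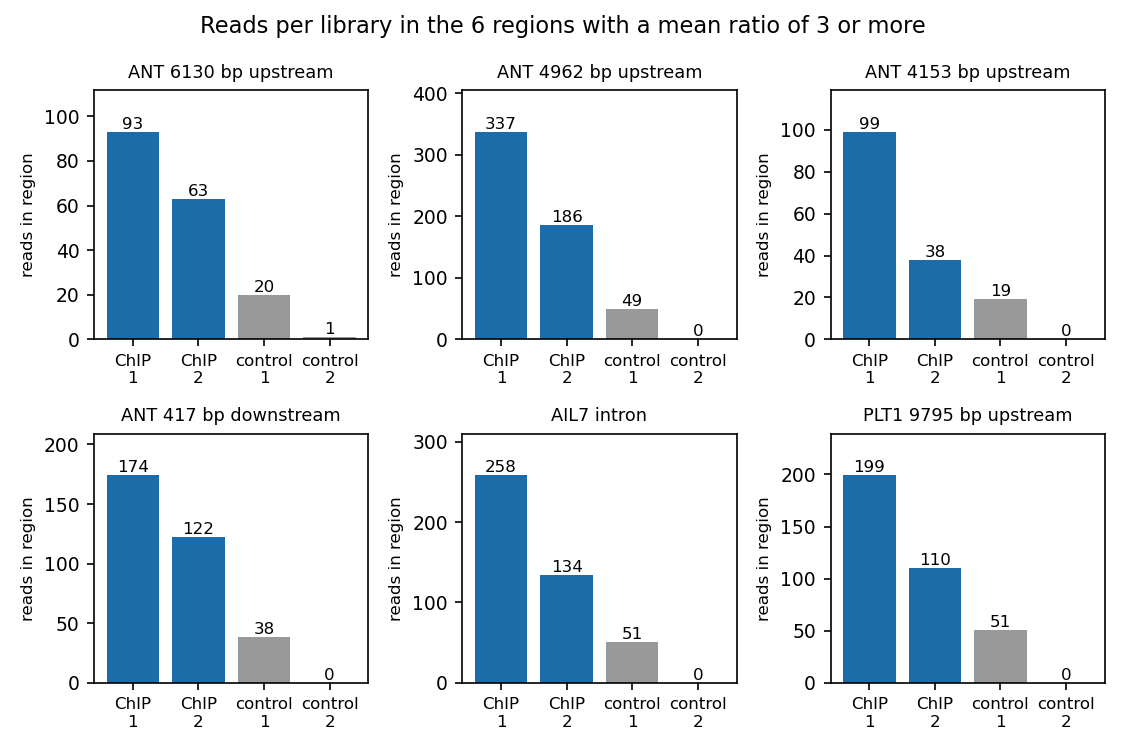
Reads in the 2 KAN1-FLAG ChIP libraries (blue) and the 2 controls (grey) in the 6 regions with a mean ratio of 3 or more, with a separate linear axis from 0 for each region. ChIP replicate 1 is the tallest bar in each, replicate 2 is above both controls, and control 2 holds 1 read in 1 region and none in the other 5.

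Being named by 9 regions was uncommon, as 0.477% of 27444 protein-coding genes were named by as many, and 231 genes (0.842%) were named by 4 or more enriched regions. In the reference the free sequence on both sides of ANT amounts to 7171 bp, against a median of 1366 bp over all genes. In the deposited table the flank was wider, since AT4G09655 does not divide it. Genes with 10000 bp or more of such room numbered 358 and were named by a median of 5 regions, against 1 over all genes. Of these 358, 9.22% were named by 4 or more enriched regions, and 21.8% had a top ratio at least as high as that of ANT.

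PLT1 lies on chromosome 3 at 7300444-7303693 on the plus strand, behind 14001 bp without an annotated gene. All 6 of its regions lay between PLT1 and UCNL (AT3G20830), a protein kinase gene of the AGC class that is transcribed away from PLT1, by the deposited gene models. In the reference the centre of the farthest one falls in an untranslated exon of UCNL. The only enriched one (7290601-7291159, 559 bp) lay 9795 bp upstream of PLT1 and 4619 bp from UCNL. It had 199 and 110 ChIP reads, against 51 and 0 control reads, and ratios of 3.90 (2.86 to 5.42) and 2.16 (1.53 to 3.07). The mean of 3.03 ± 1.23 (SD, n = 2) was just above the threshold, and replicate 2 was below it.

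The 3 sites of this region, shown above, lay 177 to 220 bp from its centre, none within the central 300 bp. The neighbouring region 11403 bp upstream had 99 and 54 ChIP reads, against 32 and 1 control reads, and a mean ratio of 2.32 ± 0.96 (SD, n = 2). The regions 14235 and 7753 bp upstream had mean ratios of 1.47 and 1.29. The 2 regions nearest to PLT1, 4442 and 3500 bp upstream, had ratios of 0.652 and 0.900, the lowest of the 21. The first of these had 15 and 15 ChIP reads, against 23 and 0 control reads, and the second 28 and 8 ChIP reads, against 20 and 0 control reads. Within the gap the ratio was thus highest in the part closer to UCNL.

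PLT2, which acts redundantly with PLT1 in the root, had 1 region on chromosome 1 (18969355-18969485), 7864 bp upstream of the gene and inside the pseudogene AT1G51175. It had 11 and 9 ChIP reads, against 7 and 0 control reads, and a mean ratio of 1.43 ± 0.20 (SD, n = 2) with intervals from 0.556 to 4.78 and from 0.426 to 4.06. Both intervals contain the threshold of 3, so at this depth enrichment of the region cannot be decided. No region was called within 3 kb upstream of PLT1 or PLT2, and this sequence held 5 sites of the motif at PLT1 and 8 at PLT2.

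AIL7 lies on chromosome 5 at 26185593-26189571 on the plus strand, between AT5G65500 and AT5G65520. Its enriched region (26187546-26187975, 430 bp) was the only one of the 6 with its centre inside a gene. This centre lay in an intron, 2168 bp past the start. It had 258 and 134 ChIP reads, against 51 and 0 control reads, and ratios of 5.06 (3.73 to 6.97) and 2.63 (1.89 to 3.70). The mean was 3.84 ± 1.72 (SD, n = 2), a percentile of 89.1 among all regions. The sites GGAATAA and AGAATAT lay 126 and 210 bp from its centre. The other region of AIL7, 1192 bp upstream, had 67 and 39 ChIP reads, against 37 and 0 control reads, and a mean ratio of 1.43 ± 0.54.

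AIL6, the closest relative of AIL7 named here, also had its only region in an intron (5, 3317900-3318168). It had 93 and 62 ChIP reads, against 39 and 2 control reads, with a mean ratio of 1.89 ± 0.53 (SD, n = 2), and held neither a VGAATAW site nor a word GNATAA or GNATAT. AIL5, on the minus strand at 23252989-23256703 of chromosome 5, had a region 666 bp upstream with 78 and 41 ChIP reads, against 35 and 1 control reads (1.65 ± 0.73). Its other region lay 3836 bp past the 3′ end and 118 bp from VIN3 (AT5G57380), a vernalization gene transcribed away from it, with 38 and 21 ChIP reads, against 13 and 3 control reads (1.84 ± 0.75). In all 3 regions of AIL5 and AIL6 the upper bound of the interval was below 3 in replicate 2. In replicate 1, which was deeper, it was above 3 in all 3 (3.31 to 4.56). Enrichment of these regions at that threshold is therefore not decided.

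The count for AIL5 rests on the gene models. The deposited table names AT5G57391, which the reference does not hold, as the gene nearest to 3 further regions upstream of AIL5. These had mean ratios of 1.96, 1.43 and 2.37. The AIL5 region 666 bp upstream also overlaps AT5G57391 by the deposited gene models. By the nearest genes of the reference AIL5 would have 5 regions and ANT 5, since AT4G09655 would take the place of ANT for 4 of its upstream regions, among them the enriched one 6130 bp upstream.

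**Figure D4:**
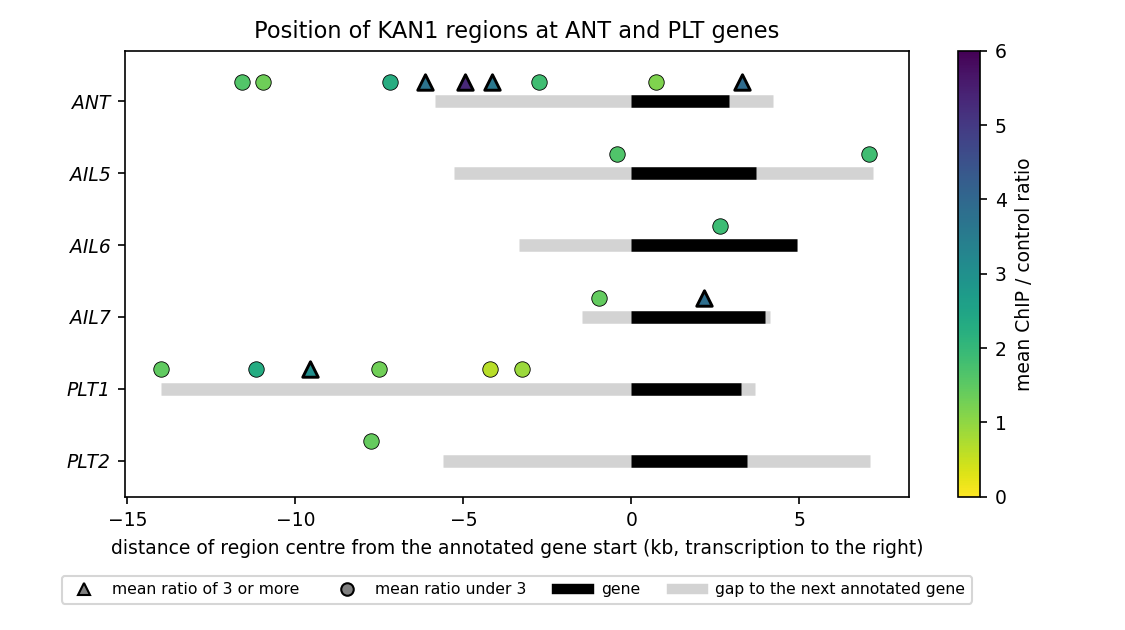
Distance of the centre of each region from the annotated start of its gene (kb, transcription to the right), coloured by mean ratio, with triangles for a mean ratio of 3 or more. Black bars are the genes and grey bars the gaps to the next gene of the reference, so regions of ANT and PLT2 that lie past the grey bar were assigned with the deposited gene models. The enriched regions of ANT cluster 4 to 6 kb upstream and just past the 3′ end, that of PLT1 lies far upstream, and that of AIL7 lies inside the gene.

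None of the 6 enriched regions had its centre within 3 kb upstream of the start of an ANT or PLT gene. A region centre within 3 kb upstream of the start was present in 3 of the 6 genes, against 53.1% of all protein-coding genes, and an enriched one in 0 of the 6, against 12.3%. The midpoints of 16 of the 21 regions were intergenic, 3 were in introns, and the other 2 were in an untranslated exon of UCNL and in the pseudogene beside PLT2. Regions overlapping the gene or within 3 kb of it numbered 7 of the 21, and 2 of these were enriched. No share over all regions is set beside these counts, so they are not read as a trait of these genes.

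Sites of the motif were counted in these regions and, for background, in all called regions. At least 1 VGAATAW site was present in 6 of the 21 (28.6%), against 47.7% of all regions. Among enriched regions the counts were 4 of 6, against 69.8%, and among the regions with a ratio under 3 they were 2 of 15, against 42.6%. The shorter words GNATAA and GNATAT, which contain part of the motif and overlap it, were present in 81.0% of the 21 regions, against 80.6% of all regions, and in 6 of 6 enriched ones, against 95.2%. The share with a site grows with region size over all regions, being 37.7% under 300 bp and 71.2% at 400 bp or more, and the 3 enriched regions of 400 bp or more, of ANT, AIL7 and PLT1, held 2 or 3 sites each. Most sites near these genes were outside called regions: of 29 sites within 3 kb upstream of the 6 genes, 3 lay in a called region (2 upstream of AIL5, in regions that name AT5G57391, and 1 at ANT), against 15.2% over all genes.

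A count test asked whether the ChIP to control ratio of a region differed from that of the average called region, using edgeR's quasi-likelihood test with Benjamini-Hochberg adjustment over the 18877 regions that passed a filter on low counts, 20 of the 21 among them. More enriched than the average region were 3 of the 20 (16.3% of all regions tested) and less enriched 0 of the 20 (2.55%). At an unadjusted p under 0.05 the counts were 6 more enriched and 0 less enriched of the 20, beside 5325 of the 18877 in either direction. The ANT region 4962 bp upstream was higher by 1.55 ± 0.27 on the log2 scale (SE, adjusted p = 3.98e-07), the AIL7 intron region by 1.07 ± 0.28 (adjusted p = 0.0016) and the ANT region 417 bp downstream by 1.13 ± 0.32 (adjusted p = 0.0040). The ANT regions 6130 and 4153 bp upstream (log2 1.03 and 0.94, adjusted p = 0.081 and 0.156) and the PLT1 region (log2 0.74, adjusted p = 0.065) missed the threshold of 0.05. These calls depend on single libraries and on the tool. Leaving out 1 library left a single library in a group, and the number of calls then changed over all regions as well. The log2 values of the 3 called regions were 1.43 to 1.95 without ChIP replicate 1 and 1.09 to 1.70 without ChIP replicate 2. Without control 2 they were 1.17 to 1.65, and without control 1, where control 2 had no read in them, 9.68 to 10.5. DESeq2 called 0 of the 20, and 0 of the 20 were at an unadjusted p under 0.05. DESeq2 also called 0 of all regions tested, with 347 at an unadjusted p under 0.05.

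Genes that act with the ANT and PLT genes, and 5 related AP2 genes, were counted in the same way. Of these 29 genes, 12 were named by at least 1 enriched region, against 19.7% of all protein-coding genes. The share was 52.2% among genes with 10000 bp or more of free flanking sequence. The lists were chosen with earlier results of these data known, so the counts are descriptive. Among the 11 genes known to act upstream of them, 5 were. RGFR1 (AT4G26540), a receptor of the root growth factor peptides that maintain PLT protein levels, had the highest mean ratio of 6.06 ± 3.38 (SD, n = 2). The auxin response factor genes MP (AT1G19850), ARF19 (AT1G19220) and ARF7 (AT5G20730) followed with 5.13 ± 2.12, 4.97 ± 1.53 and 4.07 ± 2.53. ARGOS (AT3G59900), a regulator of organ size that acts through ANT, had 3.46 ± 1.84.

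Of 3 partners in the root stem cell niche, SHR (AT4G37650), a GRAS-family regulator of root radial pattern, was enriched at 6.09 ± 3.95 (SD, n = 2), and SCR and WOX5 had 2.47 and 1.5. Of 10 genes that act downstream, 5 were enriched. PHB (AT2G34710), a class III HD-ZIP gene of the adaxial leaf side, had the highest ratio of all lists with 7.07 ± 4.12. The cyclin gene CYCD3;1 (AT4G34160) had 4.09 ± 1.93. YUC4 (AT5G11320) and YUC1 (AT4G32540), which encode enzymes of auxin synthesis, had 3.69 ± 1.92 and 3.48 ± 1.62, and the floral homeotic gene AG (AT4G18960) had 3.24 ± 1.81. Of 5 related AP2 genes only WRI4 (AT1G79700), a regulator of cuticular wax synthesis, was enriched, with 4.24 ± 2.73. In all 12 genes the ratio of the strongest region was higher in replicate 1. In replicate 2 it reached 3 for RGFR1, MP, ARF19, SHR and PHB, and was 1.96 (AG) to 2.73 (CYCD3;1) for the others. Each value for these 12 genes is that of the strongest of 2 (ARGOS) to 12 (ARF19) regions naming the gene. These strongest regions lay up to 4302 bp from the gene (MP).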

How the data were processed

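KAN1-FLAG ChIP (2 libraries) and control (2 libraries) were grouped by their labels. The authors mapped reads to TAIR10, reduced duplicate reads and called regions. The caller's version is not given in the sources used here. The deposited table holds estimated counts of reads per library and region, unscaled. For each replicate the authors deposited a false discovery rate, which is a p-value after adjustment, and the table also holds a rank score over replicates and other deposited values, namely region size and distances to genes in bp. Regions on organelles were left out. The 6 genes, the gene lists and the threshold of 3 were chosen with earlier results of these data known. All regions of the 6 genes are reported, list genes with values where enriched, besides SCR and WOX5, which were named after their values were seen, and the gene on the other side of an enriched region is named. Ratios and binomial intervals were computed with Python 3.11.15 and scipy 1.17.1. Counts, rounded to whole numbers, were tested with edgeR 4.0.16 (TMM, quasi-likelihood). The edgeR code was also run on simulated counts with the same spread set for every library, which does not bear on the calls made here. DESeq2 1.42.0 was an alternative. With 2 libraries per group an exact permutation test of a single region cannot go below p = 0.333. Sequences and gene models came from RefSeq TAIR10.1. Some items are not reported here. The first 20 bases of 347 of 347 transcripts listed with TAIR10 coordinates matched it.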

Additional observations from a re-analysis of the deposited data

How the results depend on the processing

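The count of 6 enriched regions in 3 genes kept its value with control 1 alone and with ChIP replicates scaled to equal totals. It was 13 regions in 5 genes with the mean of the controls, which called 55.8% of all regions, and 3 regions with 10 reads added (12.8%). It was 8 regions in 3 genes at a threshold of 2 (38.0% of all regions) and 1 region in 1 gene at a threshold of 4 (9.90%). When both replicates had to reach 3 it was 3 in 1 gene (7.37%). For regions within 3 kb of the gene it was 2, without a share over all regions to set beside it. Leaving out 1 library gave 3 to 8 regions in 1 to 3 genes, 2 to 5 of them with a motif site. Without the filter on low counts the count test called 5 regions more enriched (16.3% of all regions tested). It called 1 with library totals in place of TMM (9.93%) and 0 with DESeq2 (0%). With a replicate block it called 1, the ANT region 4962 bp upstream (6.02% of all regions tested). In these settings 0 regions were less enriched. Calls with 1 library left out are not given, since 1 group then holds a single library. The deviations between replicates were not correlated across ChIP and control (-0.05). Control 2 held too few reads for this to decide whether the replicate numbers pair the libraries. No ratio could be given without control 1, since control 2 had no reads in most regions. Among the mean ratios of the 21 regions, 21 moved by more than the SD with the mean of the controls, 2 with 10 reads added and 2 with scaled replicates. With 7 to 51 reads in control 1 per region, single ratios are imprecise.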
